A study of Mus musculus with 55 samples.

Results

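The immunoglobulin heavy chain genes were read from every probe set, a group of short oligonucleotides for 1 transcript, whose gene symbol in the array annotation was Ighm, Ighd, Igha, Ighg2c, Ighv2-4, Ighv5-12, Ighv7-1 or Igh-VS107. These 8 of 6137 symbols had 17 probe sets among the 13069 probe sets other than controls, 7 on the first of 2 array sets and 10 on the b set. Constant genes had 9 of them (5 for Ighm, 2 for Ighg2c and 1 each for Igha and Ighd), and variable genes had 8 (3 for Igh-VS107, 2 each for Ighv5-12 and Ighv2-4, and 1 for Ighv7-1). A further 2 heavy chain probe sets, for Ighg3 and Ighv14-3, carry symbols outside the 8 and never passed the noise limit explained below.

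The heavy chain is the larger chain of the B cell receptor and of antibody. A developing B cell joins a variable, a diversity and a joining segment into 1 exon, which is transcribed together with the constant exons of Ighm and makes the mu chain of IgM. In pro-B and large pre-B cells the mu chain pairs with the surrogate light chain, and from the immature stage with a conventional kappa or lambda chain. Ighd makes the delta chain of IgD and is reached by transcribing through Ighm and splicing the same variable exon to Ighd, which is known as a mark of maturing B cells. Igha and Ighg2c make the chains of IgA and IgG2c, which B cells use after class switching. In the RefSeq table (GRCm38.p6) the constant genes stand in the order Igha, Ighe, Ighg2c, Ighg2b, Ighg1, Ighg3, Ighd and Ighm, so Ighd and Ighm are neighbours.

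The study sorted 5 B lineage populations from mouse bone marrow and hybridised their RNA to both array sets. The 26 preparations were 6 of pre-BI cells (B220+ c-kit+), 5 of large and 5 of small pre-BII cells (both B220+ CD25+ without surface immunoglobulin), 5 of immature B cells (B220 low, surface IgM+) and 5 of mature B cells (B220 high, surface IgM+). The gate of the last 2 populations therefore rests on the protein of Ighm. Strain, age, genotype and the number of animals behind a sort are not in the labels, which give no treatment either. The labels do not say that preparations came from separate animals, so a p-value here measures only how far preparations spread, and that spread may be technical. Precision is limited by how many arrays there are.

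Levels are intensities made comparable between arrays by quantile normalisation within an array set, so levels of the 2 sets are not on 1 scale and were never tested against each other. Negative intensities gave a noise limit for each set, 251 on the first and 319 on the b set. An intensity under its limit cannot be told from no signal, and levels of different probe sets cannot be set against each other as amounts of RNA. In sorted bulk RNA, fewer cells that express a gene and less of its RNA per cell cannot be told apart. Stage markers followed the labels in that Dntt, Igll1, Mki67 and Rag1 differed along the precursor stages, and Fcer2a and Cr2 were above the noise limit in all 5 mature preparations. Kit was above it in 2 of 6 pre-BI preparations, and Il2ra, which encodes CD25, in 1 small pre-BII preparation, although both were gated on. Ptprc, the gene of B220, had a mean of 8324 in immature and 9174 in mature cells, and Ms4a1 of 12026 and 7971. Neither difference was called. Haemoglobin and granulocyte RNA was present in every population, with Hba-a1 at a mean of 8675 to 11208 and Lyz2 at 1781 to 5503. Of 7 plasma cell markers 4 were measured. Sdc1 was never above the noise limit and Jchain in at most 2 preparations of a population, while Xbp1 was above it in all 5 immature preparations (mean 416) and in 3 each of small pre-BII and mature cells. Of 8 measured T and NK cell markers, Gzma was above it in 6 of 6 pre-BI (mean 1333) and 3 of 5 large pre-BII preparations, and in none of the later populations. Cd3e went the other way, above it in 0 of 6 pre-BI, 2 of 5 large pre-BII and 3 of 5 small pre-BII preparations.

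As on the arrays as a whole, many heavy chain probe sets gave little or no signal in any population. Of the 17, 2 were above the noise limit in all 26 preparations, 8 in some and 7 in none, and 11 were above it in at most 2 preparations. Among all probe sets, 11.9% were above it in every preparation and 42.9% in none, so the heavy chain shares were near these. Both probe sets that were always above belong to Ighm. The lower limit used for testing left 14 of the 17, 7 constant and 7 variable, and the Ighm probe sets J00475_V00785_at and J00475_V00785_g_at and the Ighv5-12 probe set u23089_r_at were not tested.

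**Figure D1:**
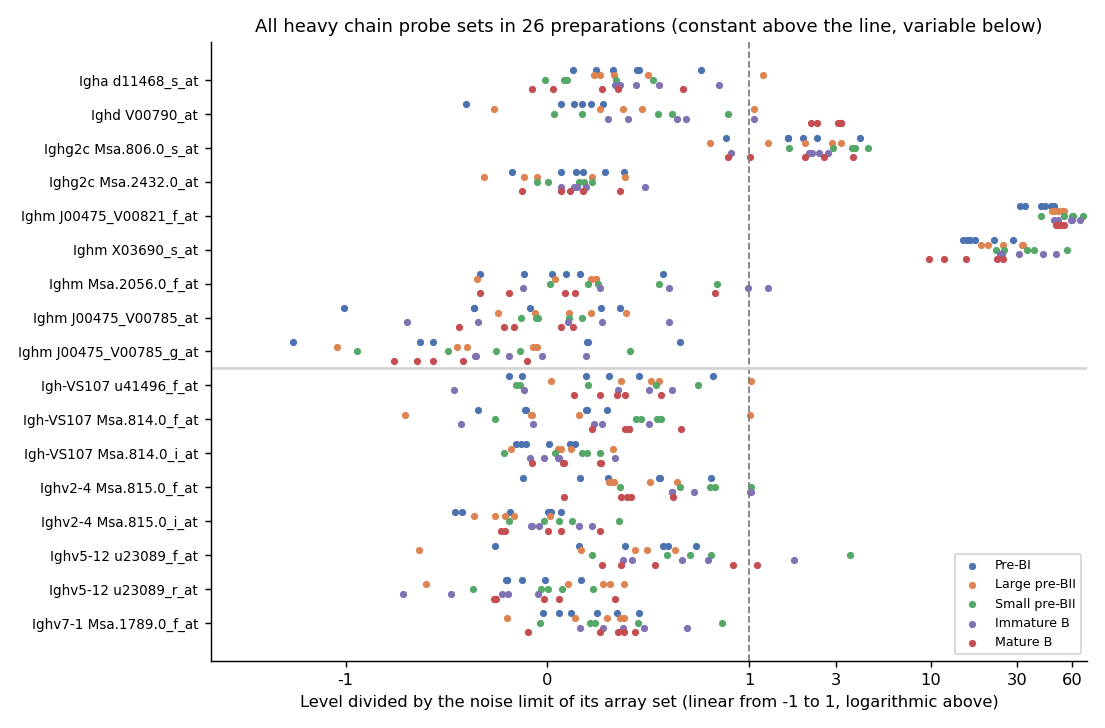
Level of each of the 17 heavy chain probe sets in 26 preparations, divided by the noise limit of its array set (horizontal axis, linear from -1 to 1 and logarithmic above); each point is 1 preparation, coloured by population. The 2 bright Ighm probe sets stand far to the right of the dashed noise limit, the brighter Ighg2c probe set lies around and above it in 22 of 26 preparations, Ighd crosses it in the mature preparations, and the variable genes lie mostly below it.

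Across the 5 populations, Ighd and 1 Ighm probe set changed. A moderated F test in limma over all 10229 tested probe sets called 2 of the 14 heavy chain probe sets, near the share of 14.8% called among all. They were Ighd V00790_at (adjusted p = 0.00166) and Ighm X03690_s_at (adjusted p = 0.00616), both constant. The brightest Ighm probe set, J00475_V00821_f_at, missed the threshold with limma's adjusted p = 0.0526, and was called in 6 of 12 other settings, among them the sort number as a replicate block (adjusted p = 0.0100). No variable gene was called, and the lowest unadjusted p of their tested probe sets was 0.104.

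Ighm RNA was bright from the earliest population on. On the first set, J00475_V00821_f_at in pre-BI cells ran from 7767 through a median of 10427 to 11994 (mean 10080 ± 1707 SD, n = 6). It read 13614, 11663, 13238, 12681 and 11994 in large pre-BII sorts 1, 2, 8, 9 and 10 (mean 12638 ± 818 SD, n = 5). Small pre-BII sorts 1, 3, 8, 9 and 10 gave 15059, 15265, 10126, 13534 and 17423 (mean 14281 ± 2705 SD, n = 5). After normalisation the pre-BI preparations held the lowest values, and the small pre-BII preparations spread most. The small pre-BII values included both a value inside the pre-BI range and the highest of all 26. As deposited, the spread was larger in pre-BI (SD 4870) than in small pre-BII cells (SD 3260).

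Immature B sorts 1, 2, 8, 9 and 11 gave 15059, 11994, 12681, 14854 and 16743 for the same probe set (mean 14266 ± 1923 SD, n = 5). Mature B sorts 1, 3, 8, 9 and 11 gave 12681, 13036, 13534, 12317 and 12455 (mean 12804 ± 490 SD, n = 5). After normalisation the mature preparations lay close together inside the immature range. The deposited values did not show this, with 8466 to 17063 in mature (SD 3720) and 13569 to 17974 in immature preparations (SD 1600). The first-set array of mature sort 11 holds the same values as another array titled as a second mature array of sort 1, so which of these sorts it belongs to is not settled.

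No step between neighbouring populations was called for this probe set. The first, from pre-BI to large pre-BII cells, was a log2 difference of 0.34 ± 0.15 (SE) at an adjusted p = 0.377 in limma, and an unadjusted p of 0.0248. The large pre-BII value was the higher in all 5 sorts that hold both populations, and with the sort number as a block the difference was 0.37 (limma adjusted p = 0.0926). The following log2 differences were 0.16 (adjusted p = 0.723), 0.01 (adjusted p = 1) and -0.15 (adjusted p = 0.936). In order of the mean, pre-BI cells came lowest, then large pre-BII, mature, immature and small pre-BII cells, with overlapping ranges between each pair of neighbours in that order.

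The second bright Ighm probe set, X03690_s_at on the b set, went up to the small pre-BII and immature stages in its means and was lowest in mature cells. In pre-BI cells it ran from 4780 through a median of 5409 to 9015 (mean 6132 ± 1633 SD, n = 6). Large pre-BII sorts 1, 2, 8, 9 and 10 gave 10091, 10219, 6022, 6571 and 7936 (mean 8168 ± 1944 SD, n = 5). Small pre-BII sorts 1, 3, 8, 9 and 10 gave 11784, 18071, 8045, 7326 and 10859 (mean 11217 ± 4261 SD, n = 5). All 3 ranges overlapped, and neither step was called by limma, with log2 differences of 0.42 (adjusted p = 0.704) and 0.41 (adjusted p = 0.506). Within shared sorts the later population was the higher in 5 of 5 at the first step and 4 of 4 at the second, and with the sort number as a block the first difference was 0.50 (limma adjusted p = 0.0776).

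Immature B sorts 1, 2, 8, 9 and 11 gave 15541, 7676, 9811, 7858 and 13276 for X03690_s_at (mean 10833 ± 3464 SD, n = 5). Mature B sorts 1, 3, 8, 9 and 11 gave 7936, 4994, 3104, 3757 and 7399 (mean 5438 ± 2154 SD, n = 5). Only the highest mature value, that of sort 1, exceeded any immature value, and in each of the 4 sorts that hold both populations the mature value was the lower. From small pre-BII to immature cells the log2 difference was -0.03 (limma adjusted p = 0.999), although the immature value was the higher in all 3 shared sorts.

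Ighm as read by X03690_s_at fell from immature to mature cells, 2.04-fold, with a log2 difference of -1.03 ± 0.26 (SE) and an adjusted p of 0.0400 in limma. It was the 1 heavy chain probe set called in this comparison, beside 1.35% of all tested probe sets. With the sort number as a replicate block, which uses the shared sorts, the call was kept (limma adjusted p = 6.45e-05). The two-sided exact permutation test of the log2 level over these 10 preparations does not use the shared sorts. It gave p = 0.0238, and was chosen after the values were seen. Without the block the call is close to the threshold. It was lost without immature sort 1 (-0.89, adjusted p = 0.155), 8 (-1.05, 0.0745) or 11 (-0.94, 0.126) and without mature sort 3 (-1.02, 0.0813), 8 (-0.85, 0.158) or 9 (-0.92, 0.140). It was also lost in 6 of 13 other settings, with the same direction in each. These were the deposited values (-1.08, 0.191), a floor at the 25th percentile (-1.03, 0.0551), no filter (-1.03, 0.108), a fit of these 2 populations alone (-1.03, 0.214), and fits inside sorts 1 to 3 (-0.79, 0.780) and 8 to 11 (-1.19, 0.0829). The summed level of the 10 measured granulocyte and monocyte markers was 7387 to 11425 in mature and 5236 to 7617 in immature preparations, and that of the 4 measured erythroid markers 9817 to 14840 and 9687 to 13492. Their part in the Ighm difference was not tested.

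**Figure D2:**
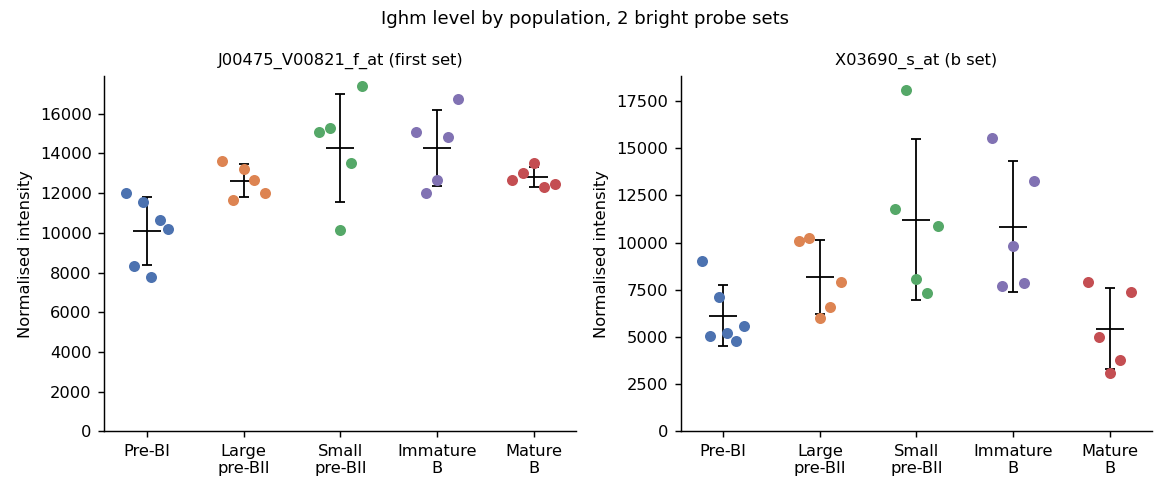
Normalised intensity of the 2 bright Ighm probe sets (vertical axes, from 0) in each preparation of the 5 populations; points are preparations, and the bars are the mean and SD. The mature preparations lie between 12317 and 13534 on the left, inside the immature range, and between 3104 and 7936 on the right, where the immature preparations lie between 7676 and 15541.

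The 2 bright Ighm probe sets thus gave different readings of mature cells. Over the 26 preparations their log2 levels had a Pearson r of 0.538 and a Spearman rho of 0.523, and a Pearson r of 0.748 over the 21 preparations other than mature. Within populations, as deviations from each population's mean, it was 0.395. These are descriptions of arrays made from the same sorts, and the difference between the probe sets was not tested because the sets were normalised apart. J00475_V00821_f_at ranked between 6 and 69 from the top of 6529 probe sets on its arrays and X03690_s_at between 5 and 165 of 6540, where few other probe sets set the quantile scale. The suffixes f and s mark probe sets whose oligonucleotides fit a family of sequences or several transcripts. The sources used here do not say which Ighm exons each one reads, nor whether it sees the membrane or the secreted form.

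The other 3 Ighm probe sets stayed near or under the noise limit. The b-set probe set with suffix f was above it in 1 preparation, immature sort 11 at 407. J00475_V00785_at and J00475_V00785_g_at were never above it, with highest values of 151 and 165 and negative values in 14 and 21 of the 26 preparations. Ighm was therefore bright by 2 of its 5 probe sets.

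Ighd stood out in mature B cells. V00790_at read 1019, 754, 701, 1023 and 987 in mature sorts 1, 3, 8, 9 and 11 (mean 897 ± 156 SD, n = 5). In immature sorts 1, 2, 8, 9 and 11 it read 205, 218, 340, 96.6 and 128 (mean 198 ± 94.7 SD, n = 5). All 5 mature preparations were above the noise limit of 319 and 1 of 5 immature preparations was, and the populations did not overlap.

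Before the immature stage Ighd was hardly measurable. Pre-BI values ran from -128 through a median of 48.5 to 88.4, with none of 6 above the noise limit. Large pre-BII sorts 1, 2, 8, 9 and 10 gave 338, -85.1, 83.1, 150 and 119, of which sort 1 was above it. Small pre-BII sorts 1, 3, 8, 9 and 10 gave 55, 174, 285, 196 and 10.5, and none was above it. The 4 earlier populations overlapped, and their means of 24.8, 121, 144 and 198 cannot be put in order, since nearly all values lay under the limit.

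The test of the Ighd step from immature to mature cells depended on how values under the noise limit were treated. With the low floor used for all probe sets, the log2 difference was 2.30 ± 0.88 (SE) and was not called by limma (adjusted p = 0.361, unadjusted p = 0.0137). Raising values to the noise limit sets 4 of 5 immature values to 1 number and so removes their spread. The log2 difference was then 1.46, or 2.74-fold, a lower bound whose p-value is not read. A floor at the 60th percentile gave 2.26 (limma adjusted p = 5.1e-05). It sets 1 of 5 immature values and 10 of 16 earlier ones to the floor, which removes part of the spread. Its p-value is therefore not read as support for the step. A fit of these 2 populations alone gave 2.30 (limma adjusted p = 0.00532). Ighd passes the filter at the noise limit only through the mature preparations. The two-sided exact permutation test of the level over these 10 preparations, also chosen after the values were seen, gave p = 0.00794, the smallest that 252 splits can give. In each of the 4 shared sorts the mature value was the higher.

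Between the populations with and without surface IgM, Ighd was the 1 heavy chain probe set called, and it rose. The log2 difference of the mean of immature and mature cells from the mean of the 3 earlier populations was 2.65 ± 0.56 (SE), with limma's adjusted p = 0.000941, beside 12.3% of all tested probe sets called. With values raised to the noise limit, which sets 15 of 16 preparations without surface IgM and 4 of 5 immature ones to 1 number, the difference was 0.74, or 1.67-fold, as a lower bound. Above that limit were 6 preparations of the surface IgM+ populations, 5 of them mature, and 1 of the others. Ighm did not pass in this comparison, with log2 differences of 0.16 (adjusted p = 0.401) for J00475_V00821_f_at and -0.13 (adjusted p = 0.757) for X03690_s_at. Inside sorts 1 to 3 the Ighd difference was 2.94 and missed the threshold (adjusted p = 0.198).

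**Figure D3:**
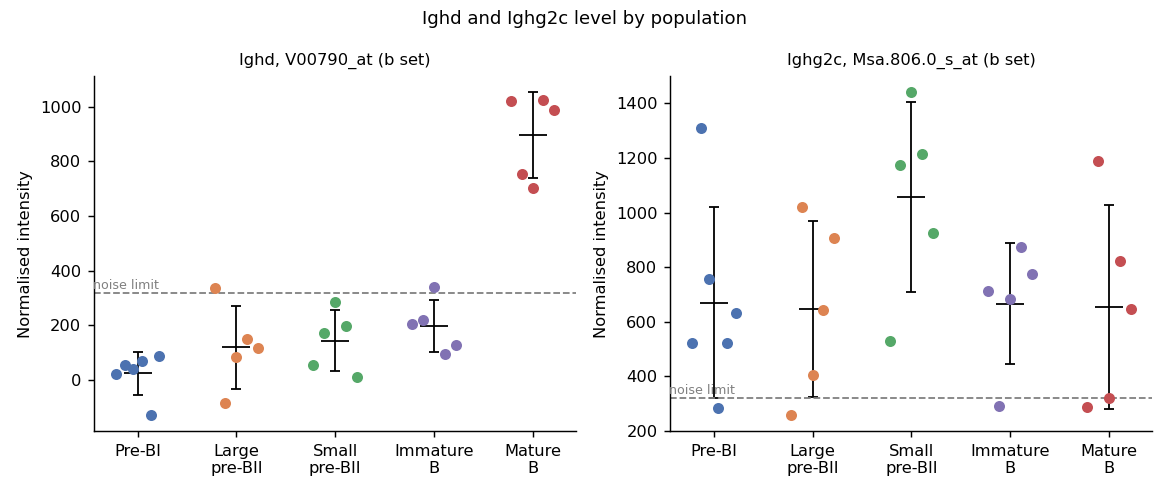
Normalised intensity of Ighd V00790_at and the brighter Ighg2c probe set (vertical axes) in each preparation of the 5 populations, with mean and SD bars and the noise limit of 319 dashed. Ighd is at 701 to 1023 in the mature preparations and at most 340 elsewhere, whereas Ighg2c spreads from 257 to 1441 with every population overlapping the others.

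Ighd and Ighm moved apart between immature and mature cells on the same arrays. The log2 level of Ighd, raised to the noise limit, minus that of Ighm X03690_s_at had a mean of -4.23 ± 0.35 (SD, n = 6) in pre-BI cells. Large pre-BII cells had -4.63 ± 0.33, small pre-BII cells -5.06 ± 0.52, immature cells -5.01 ± 0.46 and mature cells -2.52 ± 0.49 (SD, n = 5 each). The size of this value has no meaning as a ratio of RNA amounts, because the 2 probe sets differ. Its change between populations can be read only if both probe sets respond evenly to RNA, which was not tested. It was higher in every mature preparation than in any other, and at least 2.49 higher in mature than in immature cells, where 4 of 5 values are upper bounds. This value was formed after the Ighd and Ighm differences were seen and restates both together. In the 4 earlier populations it mainly followed Ighm, since Ighd was above its limit in 1 large pre-BII and 1 immature preparation.

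**Figure D4:**
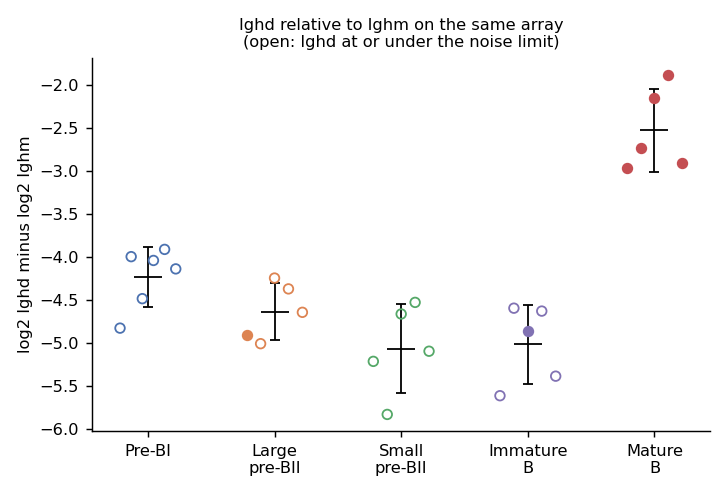
Log2 level of Ighd V00790_at, raised to the noise limit, minus log2 level of Ighm X03690_s_at on the same array (vertical axis) by population; filled points have Ighd above the limit, open points are upper bounds, and bars are mean and SD. The 5 mature preparations lie between -2.96 and -1.88, above all 21 others.

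The switched constant genes did not pass in any comparison. The brighter Ighg2c probe set, on the b set with suffix s, was above the noise limit in 22 of 26 preparations. It ran from 283 through a median of 576 to 1309 in pre-BI cells. Large pre-BII sorts 1, 2, 8, 9 and 10 gave 257, 1021, 404, 644 and 907. Small pre-BII sorts 1, 3, 8, 9 and 10 gave 529, 1174, 1441, 1214 and 923, the highest mean of the 5 populations at 1056 ± 347 (SD, n = 5). The populations overlapped, and the log2 difference from large to small pre-BII cells, 0.80 ± 0.44 (SE), was not called by limma (adjusted p = 0.410).

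In immature sorts 1, 2, 8, 9 and 11, it gave 711, 291, 684, 872 and 775, and in the 5 mature preparations it ran from 286 through a median of 647 to 1190. The means were 667 ± 222 and 653 ± 375 (SD, n = 5 each), and the ranges overlapped. The second Ighg2c probe set was never above the limit, with a highest value of 155, so both together do not settle whether Ighg2c was measurable. Igha d11468_s_at was above its limit in 1 preparation, large pre-BII sort 9 at 299.

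The variable genes were at the edge of measurement. None of their 8 probe sets was above the noise limit in more than 3 preparations, and 4 were above it in none. Ighv5-12 u23089_f_at was above it in small pre-BII sort 1 (902), immature sort 11 (444) and mature sort 8 (276), while the second Ighv5-12 probe set never was. The Ighv2-4 probe set with suffix f was above it in small pre-BII sort 9 (328.2) and immature sorts 2 (328.0) and 11 (321), by a small margin. Each value stood alone or nearly so in its population, and none of the 7 tested probe sets was called by limma in any comparison (0 at an unadjusted p under 0.05, beside 7.69 to 20.7% of all tested probe sets over the 5 comparisons).

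Igh-VS107 was above the limit in large pre-BII sort 10 by u41496_f_at (256) and in large pre-BII sort 8 by its b-set probe set with suffix f (323), and never by that with suffix i. Ighv7-1 was never above it, with a highest value of 276. The names of these variable genes are uncertain, since u41496_f_at and the Ighv7-1 probe set come from the same sequence record in the annotation yet carry the symbols Igh-VS107 and Ighv7-1. RefSeq lists Igh-VS107 as another name of Ighv7-3 and Ighv7-1 as a pseudogene segment. A B cell population carries many variable genes, each in a part of its cells, and related segments can share probes, so these probe sets do not sum up variable gene use.

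In the 3 other steps between neighbours no heavy chain probe set was called by limma. From pre-BI to large pre-BII cells it was 0 of 14 (1 at an unadjusted p under 0.05, beside 9.67% of all) beside 1.87% of all tested probe sets. From large to small pre-BII cells it was 0 of 14 (0 unadjusted, beside 15.1%) beside 5.3%, and from small pre-BII to immature cells 0 of 14 (0 unadjusted, beside 9.57%) beside 2.19%.

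Partners of the heavy chain changed at these steps, in lists of genes chosen with earlier results of these data known. Over 50 tested genes for pairing, rearrangement, transcription, RNA processing, folding and switching, 2 rose and 5 fell from pre-BI to large pre-BII cells. At the following steps 4 rose and 3 fell, then 1 rose and 6 fell, and from immature to mature cells 0 rose and 2 fell. Between the populations with and without surface IgM 8 rose and 12 fell. Of all tested probe sets, 1.87, 5.3, 2.19, 1.35 and 12.3% were called in these 5 comparisons. The median log2 difference of the 50 was -0.02, 0.06, -0.04, -0.11 and -0.16, beside medians over all tested probe sets of 0.00, 0.06, -0.02, 0.01 and 0.01.

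Of 3 tested surrogate light chain genes 2 fell from pre-BI to large pre-BII cells, where 1.87% of all tested probe sets were called. Vpreb1, which encodes a part of the surrogate light chain, fell 6.12-fold from pre-BI to large pre-BII cells (log2 difference -2.61, limma adjusted p = 0.0273), and Igll1, the lambda5 part, fell 5.93-fold (-3.28, 0.0420). Some markers of other cells also fell at this step, Gzma by a log2 difference of -1.83 (limma adjusted p = 0.00653), Ngp of -1.16 (0.0479) and Lyz2 of -0.91 (0.0429). Gzma was the 1 called of 6 tested T and NK cell markers, whose median log2 difference was 0.20 with 3 positive. Ngp and Lyz2 were the 2 called of 9 tested granulocyte and monocyte markers, with a median of -1.06 and 2 positive. The part of these markers in the falls of Vpreb1 and Igll1 was not tested. Vpreb3, an endoplasmic reticulum protein that binds newly made mu chains, fell 13-fold from immature to mature cells (-4.0, 9.7e-08). All 3 measured genes of this list were lower with surface IgM, where 12.3% of all tested probe sets were called.

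Of 2 tested conventional light chain constant genes 1 rose from large to small pre-BII cells, and both signalling partners did. At this step 5.3% of all tested probe sets were called. Iglc1, a lambda constant gene, fell 2.73-fold from pre-BI to large pre-BII cells (log2 difference -1.47, limma adjusted p = 0.000152). It then rose 16.5-fold from large to small pre-BII cells (4.07, 2.08e-13) and fell 3.57-fold from immature to mature cells (-1.84, 8.09e-06). Cd79a and Cd79b, which encode the signalling partners of surface IgM, rose 2.75-fold (1.46, 0.00372) and 1.95-fold (0.96, 0.00297) from large to small pre-BII cells. Both were also higher with surface IgM, as were Iglc1 (1.78, 1.33e-10) and Igk (1.41, 0.000406), beside 12.3% of all tested probe sets called.

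Of 7 tested rearrangement and joining genes, 4 fell from small pre-BII to immature cells, where 2.19% of all tested probe sets were called. Rag1 and Rag2, which encode the recombinase, fell at least 19.2-fold (log2 difference -5.33, limma adjusted p = 1.71e-12) and at least 2.13-fold (-2.62, 0.00243) from small pre-BII to immature cells. Hmgb2 (-4.09, 0.000867) and Hmgb1 (-0.85, 0.000841) fell at the same step. Unlike Rag1, both had already fallen from large to small pre-BII cells (-3.41, 0.0031 and -0.79, 0.000973), where 5.3% of all tested probe sets were called. Rag1 rose 4.35-fold there (2.12, 4.35e-05). Dntt, which adds bases at the joins, fell 22.5-fold from pre-BI to large pre-BII cells (-5.14, 0.000114), the step at which Gzma, Ngp and Lyz2 also fell. Among factors that bind heavy chain promoters and enhancers, 3 of 17 changed from pre-BI to large pre-BII cells, beside 1.87% of all tested probe sets. Irf4 rose 4.24-fold (2.08, 0.000416), Tcf12 rose 1.99-fold (1.00, 0.0271) and Irf8 fell 2.24-fold (-1.16, 0.0048). The same 3 genes changed from small pre-BII to immature cells in the opposite directions.

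Genes for processing and folding the heavy chain were called only between the populations with and without surface IgM. There 12.3% of all tested probe sets were called, and 1 of 8 and 1 of 9 are near that share. Of 8 tested RNA processing genes Cpsf3, a 3' end cleavage factor, was the 1 called by limma, and it rose with surface IgM (log2 difference 1.42, adjusted p = 0.00664). Of 9 folding and assembly genes, Hspa5, the chaperone that holds unpaired heavy chains, was the 1 called, and it rose with surface IgM (0.62, 0.0129). Of 2 class switching genes Msh6, which encodes a mismatch repair protein, fell with surface IgM (-0.86, 0.0212).

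The genes whose patterns were most like those of the heavy chain were found by Pearson r over the 26 preparations of the same set. For Ighm J00475_V00821_f_at they were Cd72 (0.856), Fam107b (0.729), Blk (0.726), Csk (0.722) and Cd79b (0.708) of 4327 compared. Cd72 and Blk encode a B cell surface co-receptor and a B cell kinase. For Ighm X03690_s_at they were Gadd45b (0.677), Trpc1 (0.653), Syk (0.646), H3f3b (0.608) and Car5a (0.606) of 1662. For Ighd they were H2-Eb1 (0.698), Cr2 (0.695), H2-Aa (0.689), H2-DMa (0.688) and Cd48 (0.685) of 1663. H2-Eb1, H2-Aa and H2-DMa belong to antigen presentation on MHC class II, and Cr2 is a complement receptor of mature B cells. For Ighg2c they were led by Srrm1 (0.812), Hoxb13 (0.807) and Inhbc (0.803). These correlations describe arrays that share sorts and intensities near the noise limit, and for the dimmer heavy chain genes they were not read further.

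**Figure D5:**
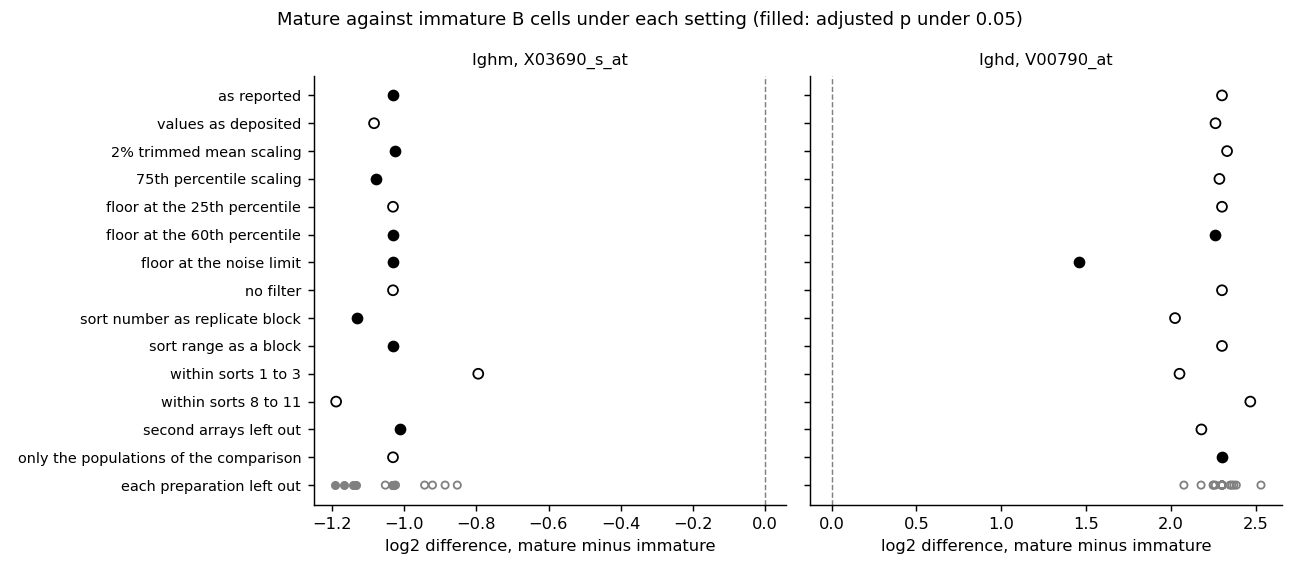
Log2 difference between mature and immature B cells (horizontal axes) for Ighm X03690_s_at and Ighd V00790_at under each processing setting (rows); filled points have a limma adjusted p under 0.05, and grey points leave out 1 preparation each. Ighm lies between -1.19 and -0.79 and Ighd between 1.46 and 2.53, with the direction kept throughout and the call changing. At the noise limit floor the Ighd difference of 1.46 is a lower bound, with 4 of 5 immature values set to the limit.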

How the data were processed

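The authors deposited 1 table per array set of linear intensity values, for 28 first-set and 27 b-set arrays, with negative values. Software, scaling and build are not given in the sources used here. The first-set array titled as second array of mature sort 1 held the same 6584 values as mature sort 11 and was counted once, as sort 11, leaving 54 arrays. After 110 control probe sets were dropped, arrays were quantile normalised per set, the 2 other second arrays were averaged with their first, values were raised to the 40th percentile (87.6 and 6.89) and values were put on the log2 scale. A probe set entered the test if at least 5 of the 26 preparations exceeded the floor. The test was made with limma 3.58.1 in R 4.3.3 (lmFit, eBayes with trend), with Benjamini-Hochberg adjustment per comparison over both sets together, at a threshold of 0.05. The noise limit is 2 robust SDs (1.4826 times the median size of negative values each). Folds use log2 values raised to it, and "at least" marks a dimmer group with no preparation above it. The script was tested on simulated data.

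The share of negative values per array was 19.7 to 28% (first set) and 33.9 to 42.3% (b set), and 2% trimmed means spanned 5.63-fold and 4.2-fold. Sort numbers are shared between populations. Deviations of same-numbered preparations correlated above 0.1 in 5 of 5, 1 of 4, 3 of 3 and 4 of 4 pairs at the 4 consecutive steps. The highest r was 0.3, so whether a shared number pairs preparations is not settled, least of all from large to small pre-BII cells.

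Every probe set of the 8 symbols was reported. Other genes named are called genes of the lists, at most 4 per list and comparison and not always the largest, some marker genes, and up to 5 most alike in pattern. Members, lists and tests were chosen with earlier results of these data known. RefSeq sequences for the members were not used here.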

Additional observations from a re-analysis of the deposited data

Results flagged for a closer look

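In 5 of 85 groups of 5 or 6 preparations, the extreme preparation stood apart from the others by Dixon's criterion, about the share that chance gives (near 1 in 20). Ighv5-12 u23089_f_at was 902 in small pre-BII sort 1, against 55 to 203 in the other preparations. Igha d11468_s_at was 299 in large pre-BII sort 9, against 58.6 to 126. The remaining 3 were low values under the noise limit: Ighv5-12 u23089_r_at at -150 in large pre-BII sort 9, the b-set Igh-VS107 probe set with suffix f at -82.1 in small pre-BII sort 8, and Ighd V00790_at at -128 in pre-BI sort 9.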

How the results depend on the processing

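The number of heavy chain probe sets called by the F test was 0 inside sorts 1 to 3 and 1 inside sorts 8 to 11, against 2, and 2 to 3 when 1 preparation was left out. It was 3, with J00475_V00821_f_at added, in 6 of 12 settings (floors at the 25th or 60th percentile or the noise limit, no filter, and the sort number or sort range as a block). From immature to mature cells it was 0 on deposited values, with a floor at the 25th percentile, with no filter, and inside sorts 1 to 3 or 8 to 11, 2 with a floor at the 60th percentile or the noise limit (Ighd added, its dim values partly or mostly set to the floor), and 0 to 1 when 1 preparation was left out. With and without surface IgM it was 0 inside sorts 1 to 3. No called difference changed direction. Uncalled ones did: Ighm X03690_s_at from small pre-BII to immature cells was 0.0013 with trimmed mean scaling, 0.16 with 75th percentile scaling and 0.23 inside sorts 8 to 11 (-0.18 to 0.16 leaving out 1), and J00475_V00821_f_at was -0.17 inside sorts 1 to 3 (-0.11 to 0.088). Ighd from large to small pre-BII cells was -0.017 with the noise limit as floor, -0.14 with the replicate block and -0.45 inside sorts 8 to 11 (-0.75 to 0.91). The cause was not tested. With sort number as a replicate block, Ighm X03690_s_at from immature to mature cells was -1.13 (adjusted p = 6.45e-05), and no other call was changed apart from the F test of J00475_V00821_f_at given above. Over all probe sets the F test called 744 on deposited values, 383 inside sorts 1 to 3 and 1038 inside sorts 8 to 11, of 1509. Only 40% (first set) and 20.1% (b set) of values were above the noise limit, which limits what can be said of Ighd before maturity and of the variable genes.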
